A study of Mus musculus with 20 samples.

Results

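The *Lbx1*/*Fgf8* locus was rearranged in mice in different ways, and here the tandem duplication (*Dup*) was set directly against the inversion (*Inv1*). Capture Hi-C (cHi-C) ligates crosslinked DNA fragments that were near each other in the nucleus, pulls down those of 1 locus with probes, and reports how many sequenced pairs link each 2 bins of the genome. Of the 20 samples of the series, 8 belong to this comparison, 4 from homozygous *Dup* and 4 from homozygous *Inv1* E11.5 limb buds. Each set of 4 holds 3 biological replicates and 1 technical replicate, and the deposited data are 1 merged map per genotype. The wild-type map, also merged from 4 samples, is given as a level for reference.

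The *Dup* and *Inv1* lines, for which the sources name no further engineered allele, were derived by CRISPR/Cas9 editing of G4 embryonic stem cells, a hybrid of inbred strains, and aggregation from several founders a line, while the wild-type samples are labelled c57bl6.J. All samples of both mutants carry the strain label G4 ESC, but in the single-cell experiments with these lines *Dup* is described as made in the strain of the wild-type and *Inv1* in G4, and founders were crossed to that strain. Strain background and allele therefore cannot be told apart, neither between the mutants nor against the wild-type. Fore- and hindlimb buds were pooled, and all their cells entered the libraries. Contact in the apical ectodermal ridge (AER), a thin rim of the bud, cannot be told apart from contact in its other cells, nor can stronger contact per cell be told apart from a greater share of cells with the contact.

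The maps cover chr19:44440001-46400000 (mm9) in 392 bins of 5 kb, of which 387 held values in both mutants. They held 13101700 read pairs in *Dup*, 11615891 in *Inv1* and 7867931 in the wild-type. With 1 merged map per genotype there was no spread between limb buds and no test. Every interval below is a 95% counting interval, which covers the error of counting read pairs only. PCR copies and the variation between embryos are not in it.

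The locus holds a pair of topologically associating domains (TADs), stretches of chromatin whose parts contact each other more than they contact the neighbouring sequence. *Lbx1* is a homeobox gene that muscle precursors need to migrate into the limb, and the product of *Btrc* selects proteins for ubiquitination. Both lie in the centromeric TAD. *Fgf8* encodes a fibroblast growth factor that the AER secretes to sustain limb outgrowth, and lies at the telomeric end of the other TAD. Most of the known enhancers that drive *Fgf8* in the AER lie inside *Fbxw4*, between the boundary of the TADs and *Fgf8*. The interval drawn around them, chr19:45655001-45705000, spans 10 bins and is called the AER enhancers here. A further AER enhancer, which the paper places close to *Fgf8*, lies outside this interval and is not covered by these values.

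The 4 cuts that define the alleles are shown because they fix which side of the enhancers each gene and the boundary came to lie on. Each line holds 30 bases of mm9 around a guide target, written 5′ to 3′ on the strand of the target, with the target and its adjacent motif in capitals.
Centromeric cut of *Dup*, minus strand, chr19:45251625-45251654: agagCCCAGGAATCGCCGATGACAGGGcac
Telomeric cut of *Dup*, minus strand, chr19:45792717-45792746: aaggTTAAATTTCTCCAAGATAAGAGGcag
Centromeric cut of *Inv1*, plus strand, chr19:45611030-45611059: acaaGGCCTCAATACACCTCCATGGGGcaa
Telomeric cut of *Inv1*, plus strand, chr19:45734081-45734110: gaggGGTGACACCAGTATTCCTCGAGGgtg
Each target had 1 match on the chromosome. The duplication runs from the centromeric cut after 45251633, in intergenic sequence 20.2 kb beyond *Tlx1*, to the cut after 45792725, in intergenic sequence 18.6 kb before the 3′ end of *Fgf8*, and spans 541 kb. It thus holds whole copies of *Lbx1*, *Btrc*, the boundary and the enhancers, while *Fgf8* stays outside in its single position. The inversion runs from the cut after 45611050, 3.22 kb beyond the 3′ end of *Btrc*, to the cut after 45734101 in intron 1 of the *Fbxw4* transcript with 9 exons, 701 bp from its start site, and spans 123 kb.

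**Figure D1:**
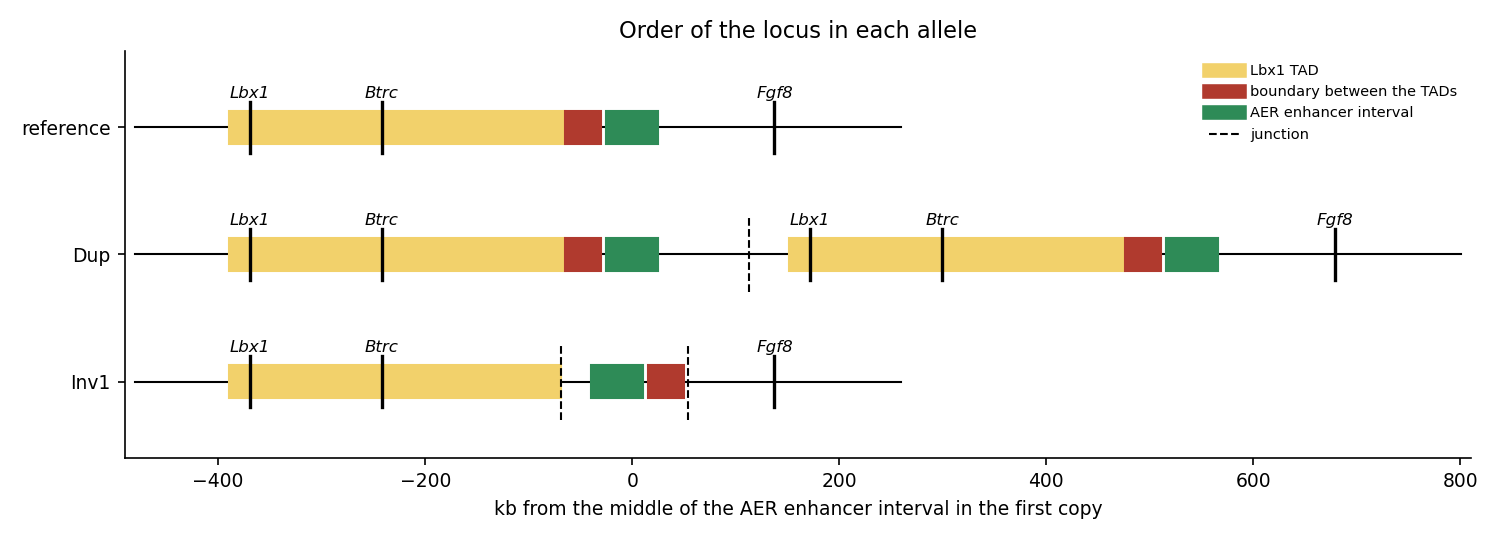
Order of the locus in the reference, *Dup* and *Inv1* alleles, with positions in kb from the centre of the enhancers (of the first copy in *Dup*). Boxes are the *Lbx1* TAD, the boundary between the TADs and the AER enhancers, vertical bars the gene start sites and dashed lines the junctions. In *Dup* the start of the added *Lbx1* copy lies 171.4 kb beyond the enhancers of the other copy, and in *Inv1* the boundary lies between the enhancers and *Fgf8*.

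The order of the alleles sets the linear distances. In *Dup*, the enhancers of the centromeric copy face the added *Lbx1* start at 171.4 kb and the added *Btrc* start at 299.3 kb across the tandem junction, and the enhancers of the telomeric copy keep their distance of 137.4 kb to *Fgf8*. In *Inv1* the middle of the enhancers moves by only 14.8 kb, so that, with negative values on the centromeric side, the *Lbx1* start lies at −354.9 kb from it instead of −369.7 kb, the *Btrc* start at −226.9 kb instead of −241.8 kb, and the *Fgf8* start at 152.3 kb instead of 137.4 kb. The boundary moves by 80.2 kb, past the enhancers to their *Fgf8* side.

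Contact is given as scaled contact per bin pair. The *Dup* map was first balanced so that every bin has the same total, as every bin of the *Inv1* map has. It therefore reads contact per bin and not per genome. The maps were then scaled to each other at every distance with the duplicated interval left out, and to a total of 1000000 over the pairs used. A gene stands for the bin of its start site and 1 bin on either side, or 15 kb. A difference is called where *Dup* and *Inv1* differ by at least 1.2-fold and the counting interval of the ratio leaves out 1.

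*Fgf8* met the AER enhancers more than 2-fold as often in *Dup* as in *Inv1*. Scaled contact was 43.7 (43.0 to 44.4) in *Dup*, on 17025 read pairs, and 19.5 (19.04 to 20) in *Inv1*, on 6958, beside 47.5 in the wild-type map. The ratio of *Dup* over *Inv1* was 2.24 (2.175 to 2.31). It was between 2.09 and 2.35 for each of the 10 enhancer bins taken alone, and all 10 were called higher in *Dup*. Over all bins of the map, 9.16% were called higher in *Dup* and 15.4% higher in *Inv1* from the *Fgf8* viewpoint. Of everything the *Fgf8* viewpoint met in the captured region, the AER enhancers took 8.02% (7.89 to 8.15) in *Dup* and 3.35% (3.27 to 3.44) in *Inv1*. With a wider region, printed by the study for its virtual 4C, that runs past the telomeric cut of *Inv1*, the ratio was 1.39 (1.364 to 1.41). The viewpoint also covers bins of the boundary on the telomeric side of *Fgf8*, which cannot be separated from the gene at this bin size.

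*Lbx1* met the enhancers at closer levels in both mutants, and whether *Dup* was higher depended on the scaling. Scaled contact was 21.3 (20.8 to 21.7) in *Dup*, on 10327 read pairs, and 17.3 (16.8 to 17.8) in *Inv1*, on 5495, and both lay above the wild-type level of 15.6. The ratio was 1.23 (1.187 to 1.275), and 6 of the 10 enhancer bins were called higher in *Dup* and none in *Inv1*. The share of bins called higher in *Dup* over the whole map from this viewpoint was 33.5%, and that called higher in *Inv1* was 14.9%. With the maps brought to a common total and not scaled by distance, the ratio was 1.00 (0.969 to 1.04). In that scaling the same rectangle moved through the flanks had a median ratio of 0.817, and *Lbx1* stood 1.23-fold above it. Dividing by a flank median at the same distance repeats the scaling by distance, so this value is not a separate result. In shares, the enhancers took 3.79% (3.71 to 3.87) of the *Lbx1* profile in *Dup* and 3.36% (3.27 to 3.46) in *Inv1*.

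*Btrc*, whose start lies closer to the inverted interval than that of *Lbx1*, leaned the other way. Its scaled contact with the enhancers was 16.7 (16.3 to 17.2) in *Dup* and 20.1 (19.4 to 20.7) in *Inv1*, from 6473 and 4561 read pairs, beside 12.02 in the wild-type. The ratio of 0.8335 (0.7999 to 0.868) fell just short of the 1.2-fold limit. All 10 enhancer bins had a ratio below 1, between 0.724 and 0.912, and 3 of them, the 3 nearest to the boundary in the reference order, were called higher in *Inv1*. Over all bins of the map, 2.88% were called higher in *Inv1* and 31.4% higher in *Dup* from the *Btrc* viewpoint. The enhancers took 3.01% (2.93 to 3.09) of the *Btrc* profile in *Dup* and 3.76% (3.65 to 3.88) in *Inv1*.

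Equal rectangles were moved in steps of 5 kb through the flanks, at the same distance and more than 25 kb from the duplication. The scaling itself makes the sums of both maps equal at each distance over bins outside the duplication. Medians near 1 therefore follow from the scaling, and only the spread of single placements around them is shown. For *Fgf8* the 201 placements ran from 0.870 to 1.22 with a median of 0.967, and 0.995% were called higher in *Dup*. For *Lbx1* the 108 placements ran from 0.793 to 1.12 with a median of 1.00, and 0% were called higher in *Dup* and 0.926% in *Inv1*. For *Btrc* the 158 placements ran from 0.8344 to 1.15 with a median of 0.975, and 0% were called higher in *Inv1*. The *Fgf8* and *Lbx1* ratios lay above every placement, and the *Btrc* ratio of 0.8335 lay just below its lowest placement. The placements hold only sequence outside the rearrangements, so they are no background for sequence whose order or copies changed. Expected from distance and copies alone, the ratios were 1.81 for *Lbx1*, 1.27 for *Btrc* and 0.863 for *Fgf8*, each already outside its placements. Neighbouring placements share most of their bins.

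Copy number changes these statements, because the *Dup* limb buds carry 4 copies of *Lbx1*, *Btrc* and the enhancers and *Inv1* 2. In the LOIC map as deposited, a normalization that keeps the higher total of duplicated bins, all 3 genes had more enhancer contact in *Dup* than in *Inv1*. The ratio was 2.78 (2.68 to 2.88) for *Lbx1*, 1.86 (1.79 to 1.94) for *Btrc* and 2.99 (2.90 to 3.08) for *Fgf8*. For *Btrc* this reverses the direction. The sequence between the *Dup* breakpoint and the *Lbx1* TAD, given here by its ratio with the enhancers, had 5.14 (4.94 to 5.35) on this scale. The *Fgf8* ratio is more than 2-fold on each scale.

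**Figure D2:**
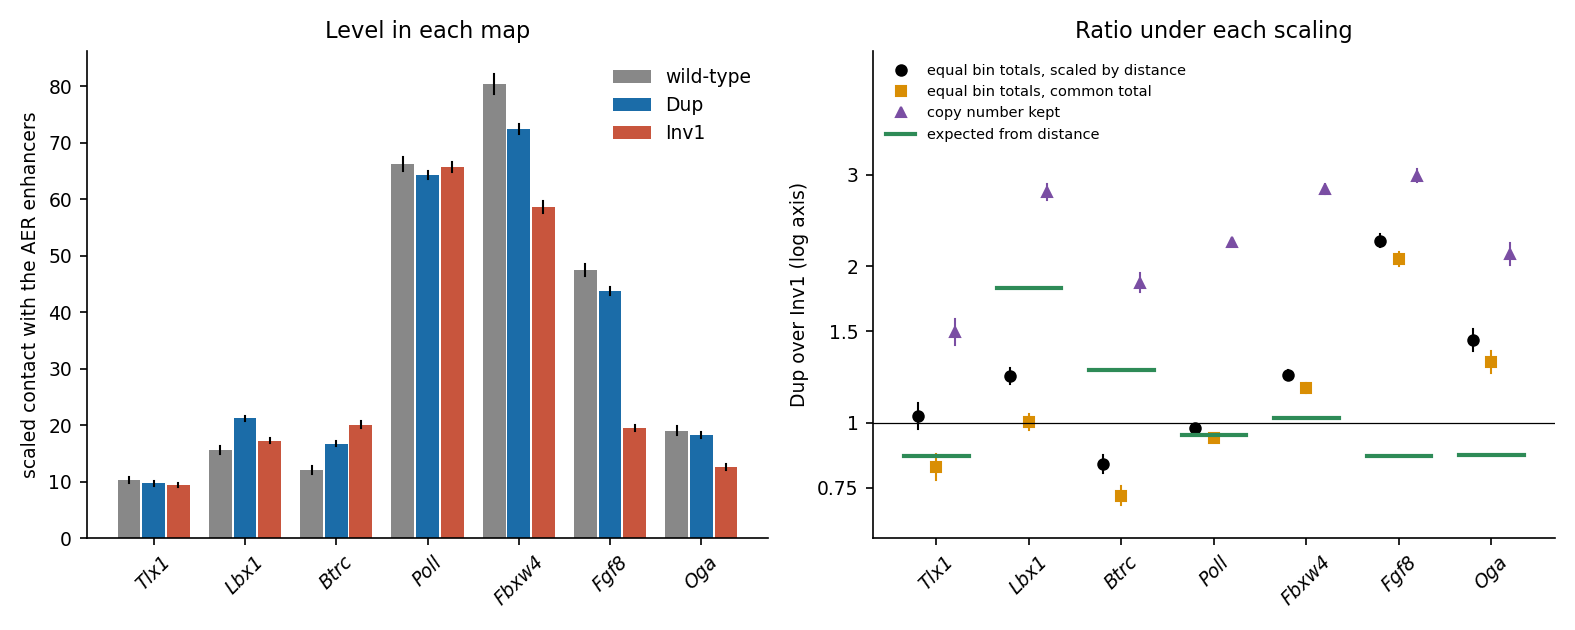
Contact of 7 genes with the AER enhancers. Left, scaled contact per bin pair in the wild-type, *Dup* and *Inv1* maps, with 95% counting intervals. Right, the ratio of *Dup* over *Inv1* on a log axis with each gene's value under 3 scalings and, as a green bar, the ratio expected from distance. *Fgf8* lies above 2 under all 3 scalings, while *Btrc* lies below 1 unless copy number is kept.

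Seen from the enhancers, *Dup* and *Inv1* differed along the *Lbx1* TAD as a gradient. From the *Dup* breakpoint to the start of the TAD, in the 35 kb next to the centromeric boundary, scaled contact with the enhancers was 41.7 (41.0 to 42.5) in *Dup* and 18.9 (18.2 to 19.6) in *Inv1*, a ratio of 2.21 (2.12 to 2.30), and all 6 bins with values there were called higher in *Dup*. Over the map, 64.2% of bins were called higher in *Dup* and 9.28% higher in *Inv1* from the enhancers. Of those called higher in *Dup*, 134 lay in the centromeric flank and 75 in the telomeric flank. These flanks had ratios of 1.34 (1.326 to 1.361) and 1.27 (1.259 to 1.288), but 0.840 (0.829 to 0.851) and 1.03 (1.015 to 1.038) with a common total. The shares of bins thus depend on the scaling. Scaled by distance, the 35 bins called higher in *Inv1* all lay in the *Lbx1* TAD. Inside the TAD the ratio of successive 80 kb parts fell from 1.17 (1.155 to 1.188) in the part with *Lbx1* through 0.868 (0.854 to 0.883) and 0.732 (0.722 to 0.743) to 0.506 (0.4996 to 0.512) in the part next to the inversion. With copy number kept, these 4 ratios were 2.64 (2.599 to 2.67), 1.935 (1.903 to 1.968), 1.63 (1.61 to 1.655) and 1.13 (1.12 to 1.15), still falling along the TAD but all higher in *Dup*. The last part had a scaled contact of 25.1 in *Dup* and 49.7 in *Inv1*, beside 21.3 in the wild-type. The running mean over 5 bins stayed below 1 from the bin at chr19:45355001-45360000 to the end of the TAD. That bin lies between the *Lbx1* start at 45310301 and the *Btrc* start at 45438224. Its place rests on the scaling. With a common total the 4 parts had 0.963 (0.949 to 0.977), 0.745, 0.661 and 0.467, already below 1 in the part with *Lbx1*.

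The ratio changed within 1 or 2 bins at the *Inv1* cuts. In the bin at 45605001, the last one before the bin with the centromeric cut of *Inv1*, it was 0.457 (0.439 to 0.475), in the bin with the cut it was 1.02 (0.974 to 1.06), and in the 7 bins of the boundary it lay between 0.931 and 1.01. These bins and the enhancers lie together inside the inversion, which keeps their distance. Beyond the telomeric cut of *Inv1* the ratio rose again, from 0.956 (0.927 to 0.986) in the bin at 45725001 to 2.18 (2.09 to 2.27) in that at 45735001. In the stretch between this cut and the *Dup* breakpoint all 10 bins with values were called higher in *Dup*, with ratios between 1.86 and 2.37. Over the whole *Lbx1* TAD, contact with the enhancers was 21.3 (21.2 to 21.3) in *Dup* and 28.8 (28.7 to 29.0) in *Inv1*. The ratio was 0.738 (0.733 to 0.743), and with copy number kept it was 1.65 (1.64 to 1.66), the opposite direction.

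**Figure D3:**
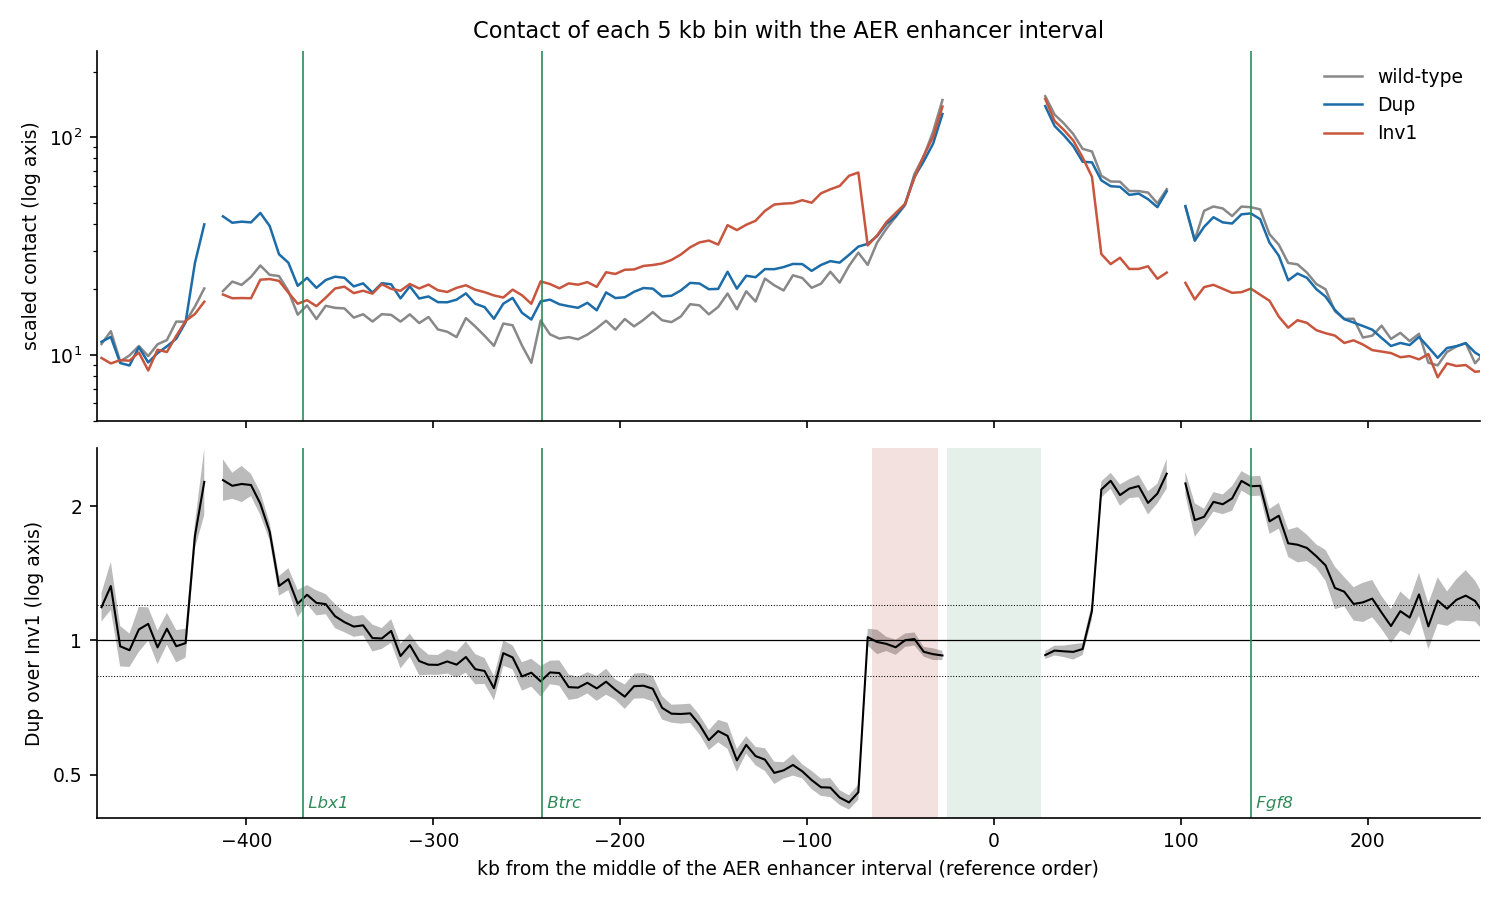
Contact of each 5 kb bin with the AER enhancer interval in the wild-type, *Dup* and *Inv1* maps (top, log axis) and the ratio of *Dup* over *Inv1* with its 95% counting interval (bottom, log axis), by distance in kb from the enhancer middle in the reference order. Green lines mark gene start sites, the red band the boundary between the TADs, the green band the enhancers and dotted lines 1.2-fold. The ratio is near 2 beside the centromeric boundary and from the *Inv1* cut to *Fgf8*, and falls along the *Lbx1* TAD to its lowest single bin, 0.433, next to the inversion.

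The other annotated start sites put the 3 genes in context. Of 34 protein-coding genes with a start site in the captured region, 19 were called higher in *Dup*, which is 55.9%, and 1, which is 2.94%, higher in *Inv1*. They share 30 start site bins, and the median ratio over all 34 was 1.245. A call in *Dup* is therefore common among start sites, and the *Lbx1* ratio of 1.23 lay near the median. Of the 4 genes with a ratio below 1, *Btrc* was one, and the call in *Inv1* was *Gm6807*, a predicted gene inside the bounds of *Btrc*, with 20.5 in *Dup* and 32.9 in *Inv1* and a ratio of 0.623 (0.605 to 0.643). *Poll*, which encodes DNA polymerase lambda, and *Dpcd* start in 1 bin of the boundary and had 64.3 in *Dup* and 65.7 in *Inv1*, a ratio of 0.979 (0.962 to 0.996).

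On the telomeric side the ratio was highest next to *Fgf8*, and it did not fall steadily with distance. *Fbxw4*, whose 15 kb viewpoint spans the *Inv1* cut, had 72.5 in *Dup* and 58.6 in *Inv1*, a ratio of 1.24 (1.21 to 1.26). *Npm3*, a nucleoplasmin family gene whose viewpoint shares bins with that of *Fgf8*, had the highest ratio of the genes outside the TADs, 2.10 (2.04 to 2.17). *Oga*, which encodes the enzyme that removes O-linked N-acetylglucosamine, had a scaled contact of 18.2 in *Dup* and 12.6 in *Inv1*, a ratio of 1.445 (1.38 to 1.52). The 12 start sites of the telomeric flank, *Npm3* and *Oga* included, ranged from 1.05 to 2.10 with a median of 1.196, and 5 were called higher in *Dup*. *Elovl3* and *Pitx3*, which had the smallest ratios of the remaining genes after *Gm6807*, had 1.05 (0.952 to 1.16) and 1.07 (0.981 to 1.17). *Nfkb2*, which encodes a subunit of the NF-kappaB transcription factors and starts farthest away on this side, had 5.04 in *Dup* and 3.33 in *Inv1*, a ratio of 1.51 (1.37 to 1.67), and 0.851 (0.773 to 0.938) with a common total. It was named after its values were seen.

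On the centromeric side, *Tlx1*, a homeobox gene just outside the *Dup* breakpoint, had a scaled contact of 9.69 in *Dup* and 9.39 in *Inv1*, a ratio of 1.03 (0.974 to 1.09). The 15 start sites of this flank ranged from 1.03 to 1.88 with a median of 1.38, and 11 were called higher in *Dup*. *Slf2* had 1.43 (1.298 to 1.57) and *Twnk*, which encodes the mitochondrial DNA helicase, 1.38 (1.27 to 1.502). The largest ratios were those of *Wnt8b*, a secreted signalling gene, at 1.88 (1.66 to 2.125) and *Hif1an*, an oxygen-dependent hydroxylase gene, at 1.88 (1.68 to 2.09). These distant values rest on the scaling. Beyond 541 kb the bin pairs that set the scale include pairs on either side of the duplication, which lie 541 kb farther apart in *Dup* than in the reference. With a common total in place of scaling by distance, *Wnt8b* had 0.995 (0.879 to 1.13), *Slf2* 0.851 (0.773 to 0.937) and *Twnk* 0.891 (0.820 to 0.968), and 3 start sites were called higher in *Dup* and 9 in *Inv1*. With copy number kept, all 34 ratios lay between 1.39 and 2.99.

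The genes also met each other, the boundary and the sequence around *Fgf8* differently. *Lbx1* with *Fgf8* had 29.1 (28.1 to 30.2) in *Dup* and 35.4 (34.3 to 36.5) in *Inv1*, a ratio of 0.823 (0.785 to 0.8635), which was called higher in *Inv1*. With copy number kept this ratio was 1.108 (1.056 to 1.16), the opposite direction. *Btrc* with *Fgf8* had 11.7 and 12.9, a ratio of 0.908 (0.831 to 0.9915) that was not called. *Lbx1* with *Btrc*, both inside their own TAD, had a ratio of 1.12 (1.05 to 1.185) that was not called. *Lbx1* reached the far end of its TAD, the last 80 kb before the inversion, with 30.4 (29.9 to 30.8) in *Dup* and 20.2 (19.7 to 20.7) in *Inv1*, a ratio of 1.51 (1.47 to 1.55). Contact of *Lbx1* with the boundary between the TADs was 40.45 in *Dup* and 24.4 in *Inv1*, a ratio of 1.66 (1.599 to 1.715), and that of *Btrc* was 24.3 and 19.5, a ratio of 1.25 (1.191 to 1.31). The inversion moves the boundary away from both genes. Expected from distance and copies, the ratios with the boundary were higher than observed, 2.09 for *Lbx1* and 1.745 for *Btrc*.

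*Fgf8* differed less in its contact with the boundary than with the enhancers. It had a scaled contact with the boundary of 48.4 in *Dup* and 52.6 in *Inv1*, a ratio of 0.919 (0.896 to 0.943). The inversion brought the boundary closer, yet the ratio expected from distance was 0.519. With copy number kept the observed ratio with the boundary was 1.23 (1.2 to 1.26), the opposite direction and past 1.2-fold. With the stretch between the *Inv1* and *Dup* telomeric cuts, *Fgf8* had 53.0 (52.1 to 53.9) in *Dup* and 72.0 (70.9 to 73.1) in *Inv1*, a ratio of 0.736 (0.720 to 0.753). With copy number kept this call was lost, with a ratio of 0.992 (0.9697 to 1.01). With the sequence closest to it, between the *Dup* breakpoint and the end of the TAD, *Fgf8* had 207.8 in *Dup* and 180.8 in *Inv1*, a ratio of 1.15 (1.125 to 1.17) that was not called. Because the stretch between the cuts is duplicated and *Fgf8* is not, 1 of its 2 copies lies on the far side of the added domain in *Dup*. Expected from distance and copies, the ratio was 0.735. With the last part of the *Lbx1* TAD *Fgf8* had 19.5 in *Dup* and 17.1 in *Inv1*, which was not called.

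In the balanced maps, whole domains moved less than the pieces within them. Contact within the *Lbx1* TAD was 79.1 in *Dup* and 79.2 in *Inv1*, a ratio of 0.999 (0.996 to 1.00). Contact within the *Fgf8* TAD was 119 and 112.5, a ratio of 1.06 (1.05 to 1.06). With copy number kept, the ratios within the *Lbx1* and *Fgf8* TADs were 2.21 and 2.15. Values near 1 thus depend on the balancing to equal bin totals. Contact between the TADs was 19.5 in *Dup* and 24.0 in *Inv1*, a ratio of 0.812 (0.808 to 0.8155) that was called higher in *Inv1*, beside 15.3 in the wild-type. With copy number kept that ratio was 1.73 (1.727 to 1.74), the opposite direction. The *Lbx1* TAD met the boundary 1.43-fold (1.42 to 1.445) more in *Dup*, while the sequence around *Fgf8*, beyond the *Dup* breakpoint, met it with a ratio of 0.859 (0.839 to 0.879). Expected from distance and copies, these ratios were 1.98 and 0.509. With copy number kept the observed ratios were 3.21 (3.184 to 3.235) and 1.15 (1.123 to 1.175), the latter in the opposite direction.

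**Figure D4:**
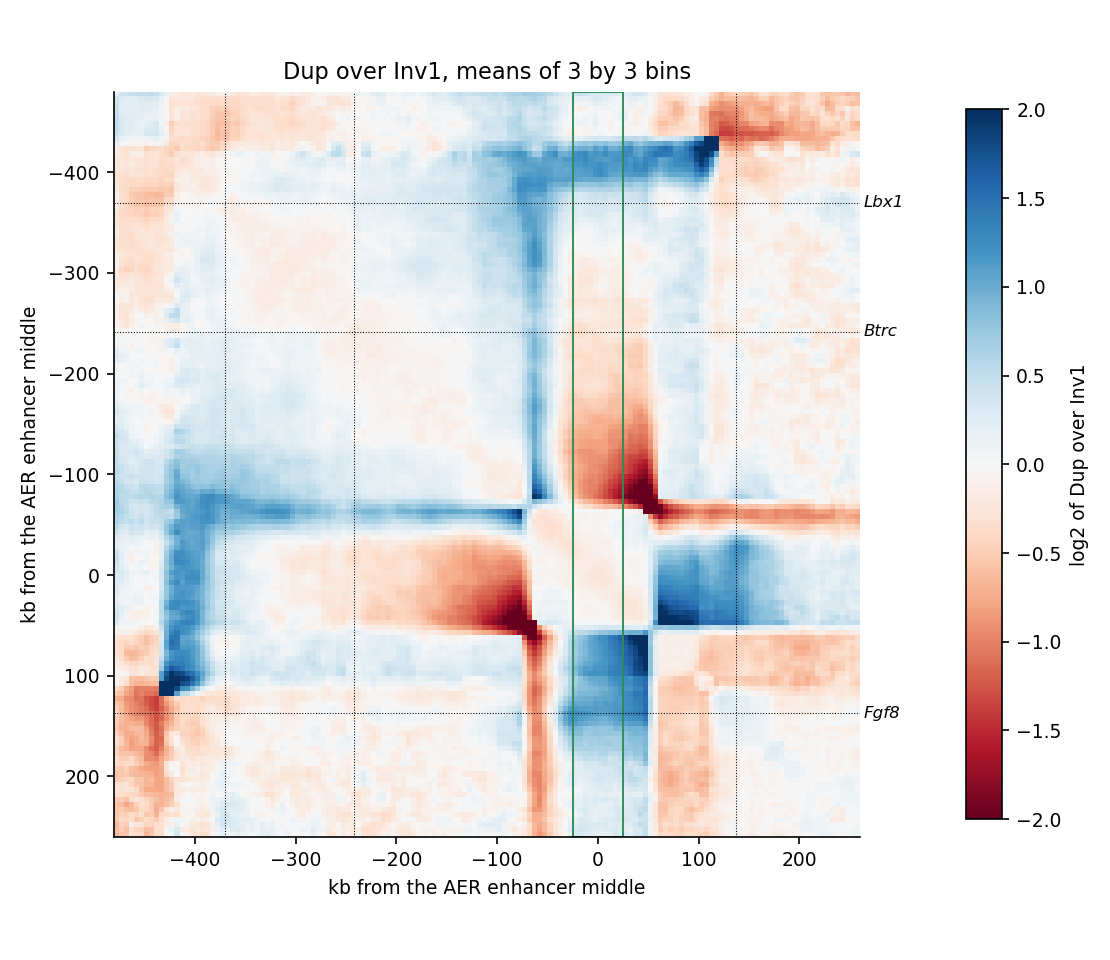
Log2 ratio of *Dup* over *Inv1* for means of 3 by 3 bins, with both axes in kb from the enhancer middle in the reference order. Blue is higher in *Dup*, red higher in *Inv1*, dotted lines are gene start sites and the green frame marks the AER enhancers. Along the frame, contact is blue beside the centromeric boundary and around *Fgf8* and red in the last 80 kb of the *Lbx1* TAD, where the ratio over the whole part was 0.506.

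The junctions of each allele had more contact in the map of that allele. The 25 kb inside either end of the duplication, joined in *Dup*, had 64.5 (61.8 to 67.3) in *Dup* and 19.7 (17.8 to 21.9) in *Inv1*, a ratio of 3.27 (2.92 to 3.66). The 25 kb on either side of the centromeric junction of *Inv1* had 23.6 in *Dup* and 108 in *Inv1*, and those of its telomeric junction 34.5 and 77.5. Their ratios were 0.218 (0.213 to 0.224) and 0.446 (0.435 to 0.457), and with copy number kept 0.489 (0.476 to 0.502) and 1.01 (0.987 to 1.04). In the order of the reference, contact across the centromeric end of the inversion was 2.39-fold (2.325 to 2.46) higher in *Dup*, and across its telomeric end 4.31-fold (4.165 to 4.46). These windows are a check of the labels, and both maps carried the junctions of their allele.

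The boundary between the TADs kept a minimum of contact across it in *Dup* and showed it at its new place in *Inv1*. The insulation score compares contact that spans a position, between the 100 kb on either side of it, with the average of the map on a log2 scale, so that low values mark boundaries. It was −0.42 in *Dup* and 0.11 in *Inv1* at 45620000, a difference of −0.53. In the inverted order, with the bins of the inversion turned round, the *Inv1* map had a minimum of −0.43 at the mirrored boundary, beside −0.42 for *Dup* and −0.57 for the wild-type at the original one. At the centromeric boundary the score was −0.71 in *Dup* and −0.58 in *Inv1*, and at the telomeric boundary −0.85 and −0.69. All 3 differences were negative, but the first is taken at a place that the boundary has left in *Inv1*. At the outer boundaries the windows span the *Dup* cuts, where balancing alters the *Dup* level. Contact across the centromeric *Dup* cut had a ratio of 0.840 when balanced and 1.21 with copy number kept. In the inverted order the *Inv1* score at the telomeric boundary was −0.61. Scores with copy number kept were not computed. With windows of 200 kb the difference at the telomeric boundary was only −0.019, from −0.640 in *Dup* and −0.621 in *Inv1*.

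**Figure D5:**
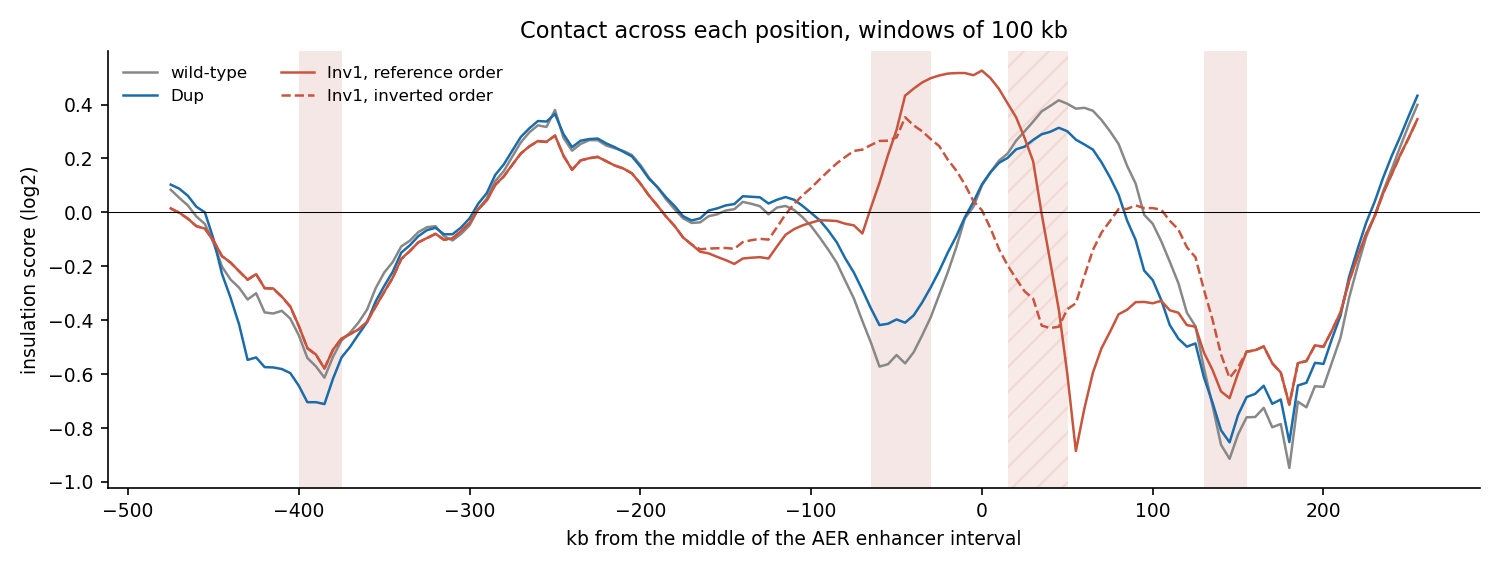
Insulation score with windows of 100 kb, by distance in kb from the enhancer middle, in the wild-type, in *Dup* and in *Inv1* in the reference and in the inverted order. Shaded bands are the boundaries, hatched where the inversion places the boundary between the TADs. The dashed *Inv1* line dips to −0.43 at the hatched band, and the *Dup* line to −0.42 at the original place.

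The boundary between the TADs met both outer boundaries more in *Dup*, in the bins where the wild-type has these contacts. The centromeric boundary and the boundary between the TADs, taken as 3 by 3 bins around their highest wild-type pair, had 75.6 in *Dup* and 33.6 in *Inv1*, a ratio of 2.25 (2.15 to 2.35). For the boundary between the TADs and the telomeric boundary these values were 63.0 and 30.5, a ratio of 2.06 (1.98 to 2.16). The ratios expected from distance and copies, from maps drawn in the order of each allele, were 2.24 for the first pair and 0.631 for the second. The outer boundaries, 525 kb apart in the reference, had 40.3 in *Dup* and 43.8 in *Inv1*, a ratio of 0.920 (0.884 to 0.958) that was not called. With copy number kept this ratio was 1.26 (1.213 to 1.315), and with a common total 0.728 (0.699 to 0.758). Both are past 1.2-fold, in opposite directions. The other 2 pairs had 5.08 and 2.81 with copy number kept, and 1.87 and 1.88 with a common total. The squares keep their bins of the reference. Over all bins of the boundary between the TADs, contact with the *Fgf8* viewpoint, which covers bins of the telomeric boundary, had a ratio of 0.919 (0.896 to 0.943). With the *Lbx1* TAD, the whole boundary had a ratio of 1.43 (1.42 to 1.445). *Fgf8* with the *Poll* viewpoint, which lies inside the boundary, had 51.2 in *Dup* and 41.0 in *Inv1*. That ratio of 1.25 (1.204 to 1.295) was called higher in *Dup*. With copy number kept, *Fgf8* with the whole boundary had 1.23 (1.2 to 1.26). More contact in *Dup* with the telomeric side thus held for the squares and the *Poll* viewpoint, and for the whole boundary only with copy number kept.

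The ratios were also set beside those expected from distance and copies. Maps expected from the decay of contact with distance in the wild-type, drawn in the order of each allele, summed over the copies in *Dup* and passed through the same balancing and scaling, gave a ratio of *Dup* over *Inv1* of 1.81 for *Lbx1*, 1.27 for *Btrc* and 0.863 for *Fgf8* with the enhancers. The observed ratio divided by the expected one was 0.679 (0.655 to 0.703) for *Lbx1*, 0.658 (0.632 to 0.686) for *Btrc* and 2.596 (2.52 to 2.67) for *Fgf8*. For *Lbx1* and *Btrc* the *Inv1* map thus stood higher, relative to *Dup*, than distance gives, and for *Fgf8* it stood lower. The expected levels in *Dup* and *Inv1* were 18.6 and 10.25 for *Lbx1*, beside 21.3 and 17.3 observed. For *Btrc* they were 19.6 and 15.5, beside 16.7 and 20.1. For *Fgf8* they were 20.2 and 23.4, beside 43.7 and 19.5, and the wild-type had 47.5. The *Fgf8* departure thus lay mostly in the *Dup* level, which was near that of the wild-type. The expected maps hold no boundaries. For the stretch beside the centromeric boundary the expected ratio was 2.13 and the observed ratio divided by it 1.035, and for the last part of the *Lbx1* TAD they were 0.918 and 0.551.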

How the data were processed

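cHi-C of pooled E11.5 fore- and hindlimb buds (DpnII, SureSelect capture) was analysed. The authors trimmed reads to a common length, aligned them to mm9 with Bowtie2 2.4.2 inside HiCUP, kept deduplicated pairs of sufficient mapping quality, merged the replicates and binned them at 5 kb. The deposited values are contact signal, after Knight-Ruiz balancing with Juicer tools 1.19.02 for the wild-type and *Inv1*, and after LOIC normalization (iced) for *Dup*, in which duplicated bins keep 2 times the total of other bins. Reads were mapped to the reference order, so contacts of the copies in *Dup* are pooled, and a contact in *Inv1* appears at its reference place. Subtraction maps, heterozygous maps and *Inv2* were not used here.

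Python 3.11.15, numpy 2.4.6 and matplotlib 3.10.9 were used. Dividing the deposited signal by solved bin factors gave whole read pairs, within 0.01, for 100% of values. Counting intervals are symmetric on the log scale and reach 1.96 standard errors, taken from these read pairs, to either side. Pairs of bins that a file does not list were counted as 0. The *Dup* map was rebalanced and both maps were scaled as stated in the report. Rectangles in the flanks needed values in 80% of their bin pairs. The steps were tested on simulated maps with known ratios. Genes came from GENCODE on mm9, with *Slf2*, *Twnk* and *Oga* named there as *Fam178a*, *Peo1* and *Mgea5*. Guide targets were located by exact match and their letters read from the genome. The drawn limits of the TADs, of the boundaries and of the enhancers follow the study's map by eye and may be off by 1 bin or more. Named genes were *Lbx1*, *Btrc* and *Fgf8* throughout, the other genes the study names there and *Tlx1* in the promoter comparison, and of the rest the 3 with the largest and the 3 with the smallest ratio. The regions, genes and lists were chosen with earlier results of these data known.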

Additional observations from a re-analysis of the deposited data

How the results depend on the processing

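No paired analysis was possible because the deposited maps merge the replicates, so neither a replicate block nor leaving out a replicate could be run. Of 56 values under the alternatives, 21 stayed within the counting interval, or within 1.5 times for counts, 31 moved and 4 reversed. With copy number kept, the ratios with the enhancers were 2.78 for *Lbx1*, 1.86 (reversed) for *Btrc*, 2.99 for *Fgf8*, 1.65 (reversed) for the *Lbx1* TAD and 5.14 for the stretch beside the centromeric *Dup* breakpoint, with 34 promoters higher in *Dup* and 0 in *Inv1*. With read pairs without bin factors they were 2.62, 1.89 (reversed), 3.06, 1.72 (reversed) and 5.89, again with 34 and 0 promoters. With a common total they were 1.00, 0.725, 2.07, 0.653 and 1.76, with 3 and 9 promoters. With the wider enhancer region the 3 genes had 1.16, 0.920 and 1.39. With medians, *Lbx1* had 1.29 and the *Lbx1* TAD 0.887. With only the inverted interval left out of the scaling, the *Lbx1* TAD had 0.727 and 2 promoters were higher in *Inv1*, as with the start site bin alone. With decay from the mutant flanks, *Lbx1* had 0.706 of its expected ratio. With windows of 200 kb the insulation difference was −0.438 at the boundary between the TADs and −0.019 at the telomeric boundary. With squares of 5 by 5 bins the boundary contacts were 2.13, 1.83 and 0.864. *Fgf8* stayed higher in *Dup* and the stretch beside the breakpoint too, under every alternative run for them. The cause of the other moves was not tested. Between 4561 and 17025 read pairs stand behind each value of the 3 genes in the mutants, and the spread between limb buds is not in any interval.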
